A study of Mus musculus with 12 samples.

Results

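The glycolysis and hypoxia response genes comprised 33 genes chosen by name: carriers of glucose and lactate, enzymes of glycolysis and of pyruvate use, the hypoxia factor Hif1a with its regulators, and known targets of that factor. Each gene was represented by 1 probe set, the one with the highest mean over the 12 arrays among those annotated to that gene alone. Of the 33 genes, 31 had such a probe set and 29 passed the filter on dim signals, out of 18194 genes with a probe set of their own and 23047 probe sets tested. Eno1 and Gpi1 had no probe set annotated to them alone in the tables used here. Car9 and Slc16a3 had one but stayed below the filter, which asked for a log2 intensity above 4 on at least 3 arrays.

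The arrays measured cerebellar granule cells in primary culture, taken at postnatal day 7 from lethargic mice on the 129/SvJ background, as the characteristics of all 12 samples state; the growth protocol also names BALB/c, without saying which cultures that concerned. Lethargic mice have a mutated Cacnb4, which encodes β4, an auxiliary subunit that helps voltage-gated calcium channels reach the membrane, and by their labels all 4 groups shared this mutation. Lentivirus added at plating for 12 hours delivered 1 of the splice variants β4a, β4b and β4e, with eGFP virus as the control, and RNA was taken after 9 days in vitro, with Ara-C given against dividing non-neuronal cells. There were 3 arrays in each group (n = 3), numbered replicate 1 to replicate 3 in every group, and the labels did not say whether a number stood for a culture, a litter or a day, nor whether arrays came from separate cultures. All p-values therefore measure the spread between these arrays, which may be technical in part. The design asked which genes respond to each splice variant in cells labelled lethargic.

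Glycolysis splits glucose into pyruvate in the cytosol, and neurons pass much of that pyruvate on to their mitochondria. When oxygen falls, the prolyl hydroxylases Egln1 and Egln3 no longer mark the protein HIF-1α for destruction, and HIF-1α then binds short DNA elements with the core letters ACGTG or GCGTG. Its targets include glucose carriers, most glycolytic enzymes, the pyruvate dehydrogenase kinase Pdk1 and the secreted factor Vegfa, so the metabolic genes and the hypoxia genes of the list are in good part under common control. HIF-1α is controlled mainly as a protein, which the arrays did not measure.

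In short, 0 of the 29 genes passed the test for any splice variant against eGFP, while 23 of 29 passed the test for a difference among the 3 replicate numbers, where 65.2% of all probe sets tested did. Slc2a1 and the enzymes Aldoa, Pgk1, Pgam1 and Pkm were highest in replicate 2. Pdk1, Egln1 and Egln3 were highest in replicate 1. Vegfa, Ndrg1 and Higd1a had their lowest mean in replicate 3. Adm did too, but the filter admitted it only through replicates 1 and 2.

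**Figure D1:**
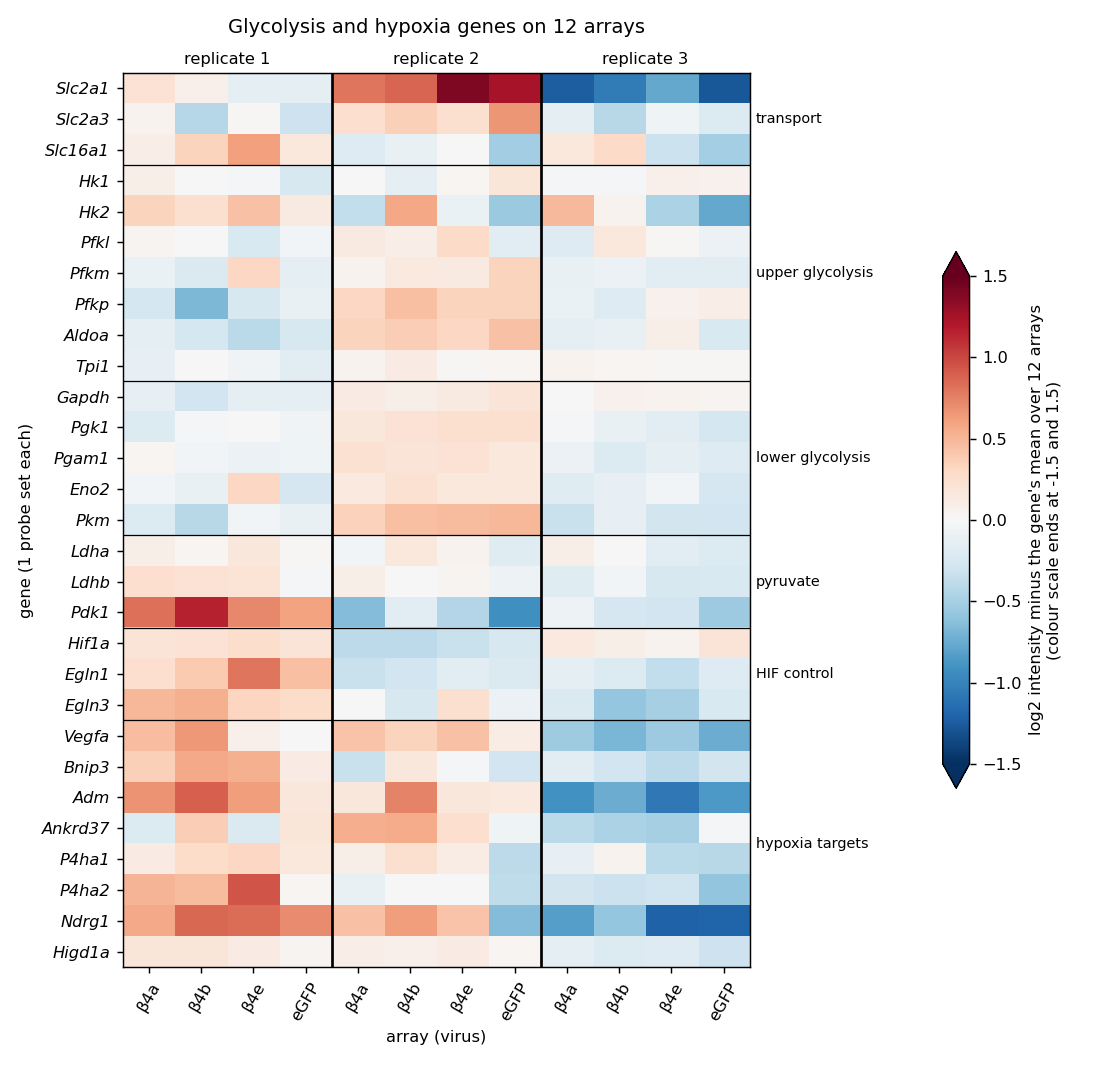
Log2 intensity of the 29 tested genes (rows, grouped by role) on the 12 arrays (columns, grouped by replicate number), each minus the gene's mean over the 12 arrays. Colour changes mostly at the lines between replicate numbers: Slc2a1 is reddest in replicate 2 and bluest in replicate 3, and Pdk1 is red in the 4 replicate 1 arrays.

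The core letters were looked for in the RefSeq promoters of the list. Known targets of HIF-1α were chosen into the list by name, so its share of matches follows in part from that choice. That share says nothing about the shifts between replicate numbers. The table (build GRCm38.p6) held 43 start sites for 31 of the genes, and Ndrg1 and Slc2a3 had no entry. In the 250 bases before the start, on both strands, ACGTG stood in 21 of the 43 windows, and in at least 1 window of 19 genes; 16.6% of 32851 windows of all genes held it. ACGTG or GCGTG stood in 34 of 43 windows, against 38.6% of all. A match read on the other strand appears as CACGT, and the 2 readings overlap inside CACGTG, which is also the E-box core. The stretches printed come from 5 genes with 1 listed start, 3 of them highest in replicate 2 (Slc2a1, Pgk1, Pgam1), with Egln1, highest in replicate 1, and the dim target P4ha2. Each is given 5′ to 3′ on the gene's strand, with each ACGTG match on either strand in capitals and up to 40 bases on either side; GCGTG matches are left in lower case.
Slc2a1, chr4:119108669-119108744, plus strand: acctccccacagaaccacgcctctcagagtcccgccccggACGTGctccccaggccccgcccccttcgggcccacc
Pgk1, chrX:106186910-106187013, plus strand: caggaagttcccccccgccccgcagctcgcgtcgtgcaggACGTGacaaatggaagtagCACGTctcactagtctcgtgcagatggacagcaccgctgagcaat
Pgam1, chr19:41911717-41911801, plus strand: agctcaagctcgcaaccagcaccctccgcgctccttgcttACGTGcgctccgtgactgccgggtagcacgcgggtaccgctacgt
Egln1, chr8:124949278-124949362, minus strand: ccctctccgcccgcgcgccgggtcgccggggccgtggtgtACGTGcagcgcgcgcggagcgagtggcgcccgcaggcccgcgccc
P4ha2, chr11:54100806-54100890, plus strand: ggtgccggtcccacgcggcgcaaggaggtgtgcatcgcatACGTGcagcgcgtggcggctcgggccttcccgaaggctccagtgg
Pgk1 held 2 ACGTG matches within the printed stretch, 1 on each strand. No ACGTG was found in the windows of Pdk1, Pfkp or Gapdh, which also moved with replicate number. ACGTG did stand before Ldha, Hk2 and Pfkm, which passed in no contrast of replicate numbers, and before Hif1a, which was lowest in replicate 2. Such a match is a description of the letters, not a binding site.

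Differences between replicate numbers were tested in 1 model of all 12 arrays with group as a term, and each difference is given as the lower number's mean minus the higher number's. Between replicate 1 and replicate 2, 16 of 29 genes passed, 8 higher and 8 lower in replicate 1, where 53.2% of all probe sets passed (29% higher, 24.2% lower). Between replicate 1 and replicate 3, 13 passed, 12 of them higher in replicate 1, where 48.2% of all passed (28.5% higher, 19.8% lower). Between replicate 2 and replicate 3, 14 passed, 13 of them higher in replicate 2, where 32.3% of all passed (16.6% higher, 15.7% lower). The share that passed was near the background for replicate 1 against each other number, and 14 of 29 against 32.3% for replicate 2 against replicate 3. The median difference of the 29 genes was -0.03 for replicate 1 minus replicate 2, 0.33 for replicate 1 minus replicate 3 and 0.30 for replicate 2 minus replicate 3, beside 0.04, 0.09 and 0.01 for all probe sets. Adm exceeded the filter's 4 only in replicates 1 and 2, and P4ha2 only on 3 arrays of replicate 1, so where they were high decided that they were tested. Without both, an alternative added after seeing the data, 15, 11 and 13 of 27 genes passed in the 3 contrasts and 21 of 27 for any difference, and the median for replicate 1 minus replicate 3 came to 0.15. Replicate number held a median of 78.8% of a gene's sum of squares over the 12 arrays for the list and 64.2% for all probe sets; the virus group held 8.95% and 12.0%.

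Glucose enters neurons mainly through Slc2a3 (GLUT3) and enters glia and endothelium mainly through Slc2a1 (GLUT1). Slc2a1 read 10.99 (β4a), 10.85 (β4b), 10.64 (β4e) and 10.63 (eGFP) in replicate 1, 11.57 (β4a), 11.65 (β4b), 12.18 (β4e) and 12.01 (eGFP) in replicate 2, and 9.54 (β4a), 9.73 (β4b), 10.00 (β4e) and 9.51 (eGFP) in replicate 3. The 4 arrays of replicate 2 lay above all others and the 4 of replicate 3 below all others. In the fit, Slc2a1 was 4.47-fold higher in replicate 2 than in replicate 3, a log2 difference of 2.16 ± 0.16 (SE; limma, Benjamini-Hochberg adjusted p = 4.58e-05). It was 2.11-fold lower in replicate 1 than in replicate 2 (-1.07 ± 0.16, adjusted p = 0.000417) and 2.12-fold higher in replicate 1 than in replicate 3 (1.09 ± 0.16, adjusted p = 0.000511). The other 2 probe sets of Slc2a1 moved the same way, with 2.71 and 2.07 for replicate 2 minus replicate 3. Slc2a3 ran from 12.44 to 12.87 in replicate 2 and from 11.78 to 12.26 on the 8 other arrays, so the ranges did not touch, and it fell by 0.54 on the log2 scale in replicate 1 against replicate 2 and rose by 0.58 in replicate 2 against replicate 3.

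The monocarboxylate carrier Slc16a1 (MCT1) moves lactate and pyruvate across membranes. Slc16a1 read 11.69 (β4a), 11.92 (β4b), 12.21 (β4e) and 11.74 (eGFP) in replicate 1, 11.39 (β4a), 11.48 (β4b), 11.58 (β4e) and 11.07 (eGFP) in replicate 2, and 11.74 (β4a), 11.87 (β4b), 11.27 (β4e) and 11.08 (eGFP) in replicate 3. The arrays of replicates 1 and 2 did not overlap, and replicate 1 rose by 0.51 over replicate 2 (SE 0.16, adjusted p = 0.0200). The other lactate carrier, Slc16a3 (MCT4), read 3.19 to 3.74 over the 12 arrays and was not tested.

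Upper glycolysis traps glucose as its phosphate and splits the sugar. The hexokinases Hk1 and Hk2, which carry out that first step, did not pass between any replicate numbers. A dimmer probe set of Hk1 did pass, at -0.79 for both replicate 1 minus replicate 3 (adjusted p = 0.00244) and replicate 2 minus replicate 3 (adjusted p = 0.00432), so the probe sets of Hk1 disagreed. Among the other enzymes of this stage, no call was made for the phosphofructokinase subunits Pfkl and Pfkm or the triose isomerase Tpi1. The third phosphofructokinase subunit Pfkp ran from 11.08 to 11.65 in replicate 1, from 12.06 to 12.20 in replicate 2 and from 11.55 to 11.85 in replicate 3. It fell by 0.68 in replicate 1 against replicate 2 (SE 0.11, adjusted p = 0.000747), and its dimmer probe sets gave -0.50 and 0.19. Aldolase A (Aldoa) ran from 13.42 to 13.67 in replicate 1, from 14.13 to 14.25 in replicate 2 and from 13.58 to 13.90 in replicate 3. Replicate 2 lay above all other arrays. Aldoa was 1.54-fold lower in replicate 1 than in replicate 2 (-0.62 ± 0.10, adjusted p = 0.000563) and 1.38-fold higher in replicate 2 than in replicate 3 (0.46 ± 0.10, adjusted p = 0.00629). The probe sets of Aldoa and Tpi1 used here, like that of Ndrg1, are of a type (suffix _x_at) that may bind related transcripts as well, and 4 further probe sets of Aldoa gave -0.51 to -0.92 for the same difference.

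Lower glycolysis yields the ATP and the pyruvate. Gapdh read 13.13 (β4a), 12.97 (β4b), 13.11 (β4e) and 13.12 (eGFP) in replicate 1, 13.38 (β4a), 13.35 (β4b), 13.39 (β4e) and 13.45 (eGFP) in replicate 2, and 13.25 (β4a), 13.32 (β4b), 13.30 (β4e) and 13.29 (eGFP) in replicate 3. These values come from the array's own 3′ control probe set for Gapdh, the glyceraldehyde phosphate dehydrogenase often used as a loading reference. Replicate 1 lay below and replicate 2 above all other arrays, yet the whole range spanned 0.48 on the log2 scale. Gapdh fell by 0.31 in replicate 1 against replicate 2 (SE 0.07, adjusted p = 0.00578) and by 0.21 against replicate 3 (SE 0.07, adjusted p = 0.0368). The second call was lost on leaving out any 1 of 10 arrays, with adjusted p up to 0.123 without β4b replicate 3. The other 2 Gapdh control probe sets passed for that difference, at -0.48 (adjusted p = 0.00101) and -0.29 (adjusted p = 0.00827). Phosphoglycerate kinase (Pgk1), phosphoglycerate mutase (Pgam1) and pyruvate kinase (Pkm) each lay above all other arrays in replicate 2. Pkm ran from 9.02 to 9.39 in replicate 1, from 9.78 to 9.93 in replicate 2 and from 9.10 to 9.32 in replicate 3, a rise of 0.70 in replicate 2 against replicate 3 (SE 0.10, adjusted p = 0.000875). Over the same contrast Pgk1 rose by 0.36 and Pgam1 by 0.36. Eno2 read 11.81 (β4a), 11.74 (β4b), 12.16 (β4e) and 11.61 (eGFP) in replicate 1, 12.00 (β4a), 12.08 (β4b), 12.01 (β4e) and 12.01 (eGFP) in replicate 2, and 11.67 (β4a), 11.73 (β4b), 11.82 (β4e) and 11.61 (eGFP) in replicate 3. Neuronal enolase (Eno2) also passed between replicates 2 and 3 (0.32 ± 0.10, adjusted p = 0.0339), although the arrays of both overlapped with those of replicate 1.

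Counts without overlap summarise the carriers and enzymes. In 8 genes all 4 arrays of replicate 2 lay above the other 8 arrays (Slc2a1, Slc2a3, Pfkp, Aldoa, Gapdh, Pgk1, Pgam1 and Pkm), a pattern of 8.08% of all probe sets tested. None of the 29 genes had replicate 3 above the other 8 arrays, a pattern of 4.93% of all. Replicate 1 lay below the other 8 arrays in 2 genes, Tpi1 and Gapdh (12.4% of all). Tpi1 spanned only 12.97 to 13.26 over the 12 arrays and passed in no contrast.

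**Figure D2:**
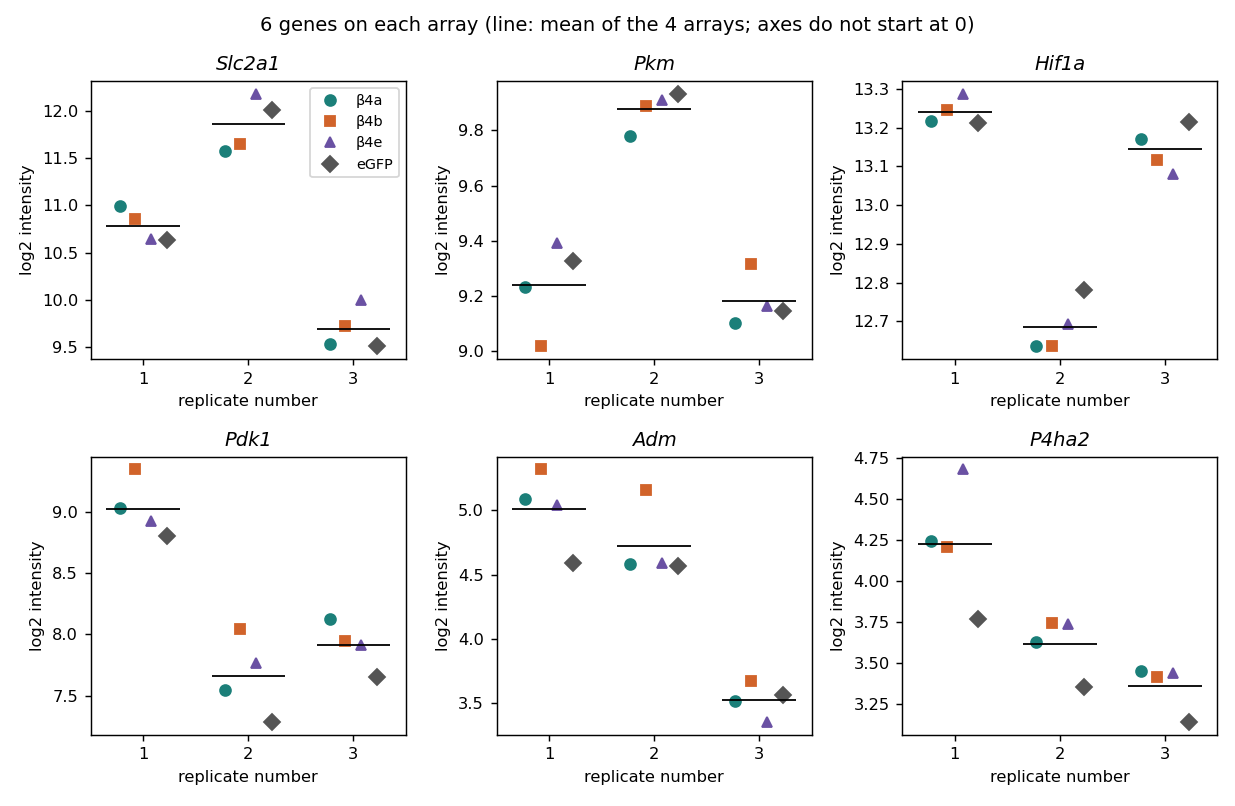
Log2 intensity (y axis, each panel with its own range) of 6 genes by replicate number (x axis), 1 point per array, shaped and coloured by virus, with a line at the mean of 4 arrays. Slc2a1 and Pkm peak in replicate 2, Hif1a dips there, Pdk1 and P4ha2 are highest in replicate 1, and Adm is lowest in replicate 3. In P4ha2 the eGFP point is the lowest of each replicate number. The filter admitted Adm and P4ha2 only through arrays where they were high.

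At the fork after pyruvate, Ldha and Ldhb interconvert pyruvate and lactate, and Pdk1 switches off pyruvate dehydrogenase and so keeps pyruvate from the mitochondria. Ldha read 12.44 (β4a), 12.39 (β4b), 12.52 (β4e) and 12.37 (eGFP) in replicate 1, 12.31 (β4a), 12.52 (β4b), 12.40 (β4e) and 12.18 (eGFP) in replicate 2, and 12.44 (β4a), 12.35 (β4b), 12.19 (β4e) and 12.15 (eGFP) in replicate 3. Ldha overlapped between all replicate numbers and passed in none of the 3 contrasts. Ldhb rose by 0.33 in replicate 1 against replicate 3 (SE 0.08, adjusted p = 0.00724), but its 3 other probe sets gave -0.17, -0.08 and 0.10. Pdk1 read 9.03 (β4a), 9.35 (β4b), 8.92 (β4e) and 8.80 (eGFP) in replicate 1, 7.54 (β4a), 8.04 (β4b), 7.76 (β4e) and 7.28 (eGFP) in replicate 2, and 8.13 (β4a), 7.95 (β4b), 7.92 (β4e) and 7.66 (eGFP) in replicate 3. Every array of replicate 1 lay above the 8 others, as it did for Egln1 and Egln3; with P4ha2, whose place is set by the filter, these are 4 genes, beside 14.7% of all probe sets. Pdk1 was 2.58-fold higher in replicate 1 than in replicate 2 (1.37 ± 0.11, adjusted p = 1.75e-05) and 2.16-fold higher in replicate 1 than in replicate 3 (1.11 ± 0.11, adjusted p = 7.41e-05). Its 2 other tested probe sets gave 0.82 and 1.02 for the first of these differences. Replicate 2 had the lowest mean of Pdk1, 7.66 ± 0.32 (SD, n = 4) beside 7.91 ± 0.19 in replicate 3, a difference that did not pass (adjusted p = 0.116). It did pass with all probe sets of the gene averaged (-0.30, adjusted p = 0.0413) and without β4b replicate 3 (-0.36, adjusted p = 0.0432).

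Hif1a encodes the oxygen-regulated subunit of the factor, and Egln1 and Egln3 its prolyl hydroxylases, of which Egln3 is itself a target. Hif1a read 13.22 (β4a), 13.24 (β4b), 13.29 (β4e) and 13.21 (eGFP) in replicate 1, 12.64 (β4a), 12.63 (β4b), 12.69 (β4e) and 12.78 (eGFP) in replicate 2, and 13.17 (β4a), 13.12 (β4b), 13.08 (β4e) and 13.21 (eGFP) in replicate 3. All 4 arrays of replicate 2 lay below the 8 others, a pattern of 9.72% of all probe sets. Hif1a rose by 0.56 in replicate 1 against replicate 2 (SE 0.07, adjusted p = 0.000233) and fell by 0.46 in replicate 2 against replicate 3 (SE 0.07, adjusted p = 0.00177). Its 2 other tested probe sets gave 0.90 and 1.16 for the first difference and -0.52 and -0.64 for the second. So in replicate 2 the Hif1a transcript was low while the 8 carriers and enzymes named above were high, by the probe sets used. Of these, Gapdh did not pass in limma for replicate 2 minus replicate 3 (0.10, adjusted p = 0.332). For Pfkp, the dimmer probe sets gave -0.02 and -0.78 in that contrast, and the second passed as lower (adjusted p = 0.0375).

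Egln1 read 9.67 (β4a), 9.81 (β4b), 10.22 (β4e) and 9.87 (eGFP) in replicate 1, 9.09 (β4a), 9.13 (β4b), 9.24 (β4e) and 9.20 (eGFP) in replicate 2, and 9.28 (β4a), 9.21 (β4b), 9.05 (β4e) and 9.23 (eGFP) in replicate 3. Egln3 read 5.16 (β4a), 5.20 (β4b), 4.99 (β4e) and 4.93 (eGFP) in replicate 1, 4.66 (β4a), 4.42 (β4b), 4.90 (β4e) and 4.57 (eGFP) in replicate 2, and 4.44 (β4a), 4.08 (β4b), 4.16 (β4e) and 4.43 (eGFP) in replicate 3. In both genes each array of replicate 1 lay above all arrays of replicates 2 and 3. Egln1 rose by 0.73 in replicate 1 against replicate 2 (SE 0.12, adjusted p = 0.000657) and by 0.70 against replicate 3 (SE 0.12, adjusted p = 0.00104). Egln3 rose by 0.79 in replicate 1 against replicate 3 (SE 0.13, adjusted p = 0.000889) and by 0.43 against replicate 2 (SE 0.13, adjusted p = 0.0175). The call against replicate 2 was lost without eGFP replicate 2, β4a replicate 2, β4b replicate 2 or β4b replicate 1, at adjusted p from 0.0544 to 0.0646. The dimmer probe set of Egln3 gave 1.68 for replicate 1 minus replicate 3 and that of Egln1 gave 0.49.

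Targets outside glycolysis include the vessel growth factor Vegfa, the vasodilator peptide Adm, the mitophagy receptor Bnip3, the collagen prolyl hydroxylases P4ha1 and P4ha2, the stress protein Ndrg1, which oligodendrocytes also express, and the mitochondrial protein Higd1a. Adm and P4ha2 are left out of the counts that follow, since the filter admitted them only through the arrays where they were high. The 6 other tested targets all had a fitted difference above 0 for replicate 1 minus replicate 3 (59% of all probe sets), and 5 of 6 passed as higher (28.5% of all). For replicate 2 minus replicate 3 all 6 were above 0 (51.2% of all) and 4 passed as higher (16.6% of all). For replicate 1 minus replicate 2, 2 of 6 passed as higher, near the 29% of all probe sets.

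Vegfa read 7.56 (β4a), 7.75 (β4b), 7.17 (β4e) and 7.08 (eGFP) in replicate 1, 7.53 (β4a), 7.44 (β4b), 7.53 (β4e) and 7.20 (eGFP) in replicate 2, and 6.56 (β4a), 6.41 (β4b), 6.55 (β4e) and 6.36 (eGFP) in replicate 3. The arrays of replicate 3 lay below all others, as they did for Slc2a1 and Higd1a; with Adm, which the filter admitted through the other 8 arrays, these are 4 genes, beside 6.8% of all probe sets. Vegfa rose by 0.92 in replicate 1 against replicate 3 (SE 0.12, adjusted p = 0.000276) and by 0.95 in replicate 2 against replicate 3 (SE 0.12, adjusted p = 0.000541), while replicate 1 minus replicate 2 was -0.03 ± 0.12. Adm read 5.09 (β4a), 5.32 (β4b), 5.04 (β4e) and 4.59 (eGFP) in replicate 1, 4.58 (β4a), 5.16 (β4b), 4.59 (β4e) and 4.56 (eGFP) in replicate 2, and 3.51 (β4a), 3.67 (β4b), 3.35 (β4e) and 3.56 (eGFP) in replicate 3. Replicates 1 and 2 overlapped, and replicate 3 stood apart. All 4 values of replicate 3 were under the filter's 4, near background, and Adm was tested only because replicates 1 and 2 exceeded it, so no fold or p is given for it against replicate 3.

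Ndrg1 read 8.18 (β4a), 8.47 (β4b), 8.45 (β4e) and 8.32 (eGFP) in replicate 1, 8.04 (β4a), 8.23 (β4b), 8.03 (β4e) and 6.96 (eGFP) in replicate 2, and 6.77 (β4a), 7.02 (β4b), 6.39 (β4e) and 6.40 (eGFP) in replicate 3. Replicate 3 overlapped replicate 2 only through eGFP replicate 2. Ndrg1 was 3.26-fold higher in replicate 1 than in replicate 3 (1.71 ± 0.19, adjusted p = 0.000132) and 2.25-fold higher in replicate 2 than in replicate 3 (1.17 ± 0.19, adjusted p = 0.00214). Its smaller difference between replicates 1 and 2, 0.54 (adjusted p = 0.0405), dropped to 0.30 without eGFP replicate 2 (adjusted p = 0.105), and the call was also lost without eGFP replicate 1, eGFP replicate 3, β4a replicate 3, β4b replicate 2, β4b replicate 3 or β4e replicate 1. It was lost too with no group term (adjusted p = 0.0811), after quantile normalization again (0.0589) and with each probe set tested alone (0.0963). The 3 other tested probe sets gave 1.13, 1.12 and 0.81 for replicate 1 minus replicate 3.

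P4ha1 read 7.42 (β4a), 7.58 (β4b), 7.61 (β4e) and 7.47 (eGFP) in replicate 1, 7.39 (β4a), 7.54 (β4b), 7.41 (β4e) and 6.91 (eGFP) in replicate 2, and 7.18 (β4a), 7.35 (β4b), 6.90 (β4e) and 6.89 (eGFP) in replicate 3. P4ha2 read 4.24 (β4a), 4.21 (β4b), 4.68 (β4e) and 3.77 (eGFP) in replicate 1, 3.62 (β4a), 3.74 (β4b), 3.73 (β4e) and 3.35 (eGFP) in replicate 2, and 3.45 (β4a), 3.41 (β4b), 3.44 (β4e) and 3.14 (eGFP) in replicate 3. Both enzymes were highest in replicate 1 on average, and in both its arrays did not overlap with those of replicate 3. P4ha1 rose by 0.44 in replicate 1 against replicate 3 (SE 0.11, adjusted p = 0.0108). P4ha2 passed the filter only through its β4a, β4b and β4e arrays of replicate 1, and its other 9 values are near background. Its high place in replicate 1, and with the variants, is therefore a description, and no test is given for it. Bnip3 rose by 0.67 in replicate 1 against replicate 3 and by 0.52 against replicate 2. Higd1a spanned 12.05 to 12.21 in replicate 3 and 12.39 to 12.54 elsewhere, and it rose by 0.35 in replicate 1 against replicate 3. Ankrd37, an ankyrin repeat protein, passed only for replicate 2 minus replicate 3 (0.67, adjusted p = 0.0193). Car9 read 3.58 (β4a), 3.68 (β4b), 3.21 (β4e) and 2.96 (eGFP) in replicate 1, 3.16 (β4a), 3.63 (β4b), 3.98 (β4e) and 3.17 (eGFP) in replicate 2, and 2.72 (β4a), 2.62 (β4b), 2.85 (β4e) and 3.07 (eGFP) in replicate 3. Car9, a carbonic anhydrase that is strongly induced by low oxygen in many tissues, thus never reached 4 on any array.

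**Figure D3:**
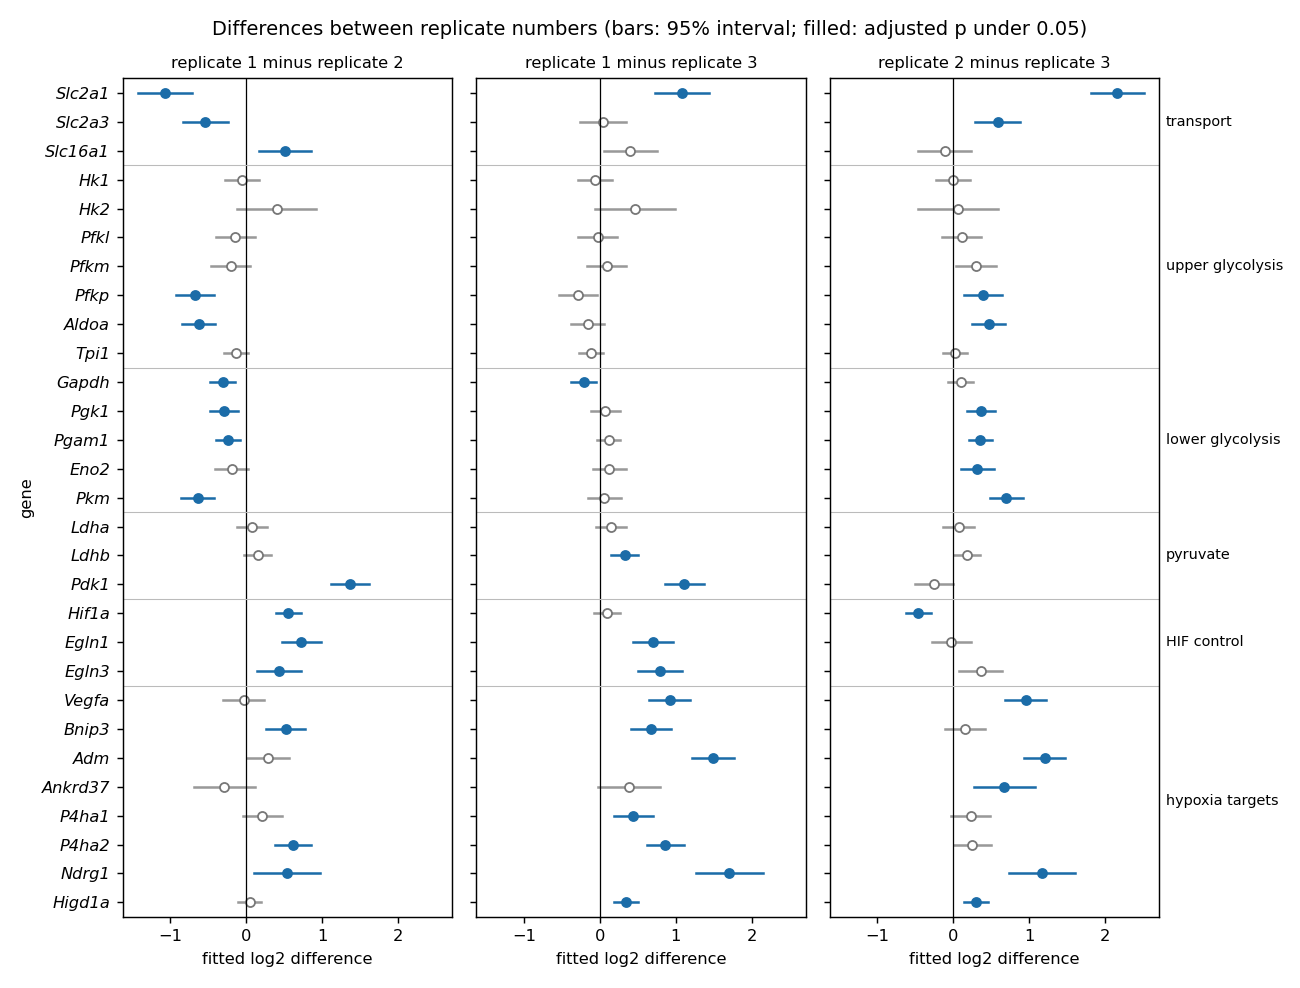
Fitted log2 difference (x axis) of each of the 29 genes (rows, by role) between replicate numbers, 1 panel per pair, with 95% intervals; filled points have an adjusted p under 0.05. The hypoxia targets lie right of 0 in both panels against replicate 3 (59% and 51.2% of all probe sets). Adm and P4ha2 are drawn among them, but the filter admitted both only through arrays where they were high. In the panel of replicate 1 minus replicate 2, 8 genes of transport and glycolysis lie left of 0 as filled points.

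Some markers of other cells, and the Gapdh measure of RNA integrity, moved with the replicate numbers too. In bulk RNA, fewer cells of a type and less RNA per cell cannot be told apart. The 9 oligodendrocyte markers summed to 29030 to 30265 units of linear intensity in replicate 1, 23443 to 26039 in replicate 2 and 18821 to 22257 in replicate 3, without overlap. Of these markers 7 of 9 passed as higher in replicate 1 than in replicate 3 (28.5% of all probe sets). The 6 hypoxia targets counted above without Adm and P4ha2 had their lowest mean in the same replicate 3. The 13 astrocyte markers summed to 25554 to 31436 in replicate 1, 17109 to 28333 in replicate 2 and 20264 to 49700 in replicate 3. Of these markers 4 of 13 passed as lower in replicate 2 than in replicate 3 (15.7% of all), among them Aqp4 (-0.94). The 12 granule cell markers summed to 98098 to 105252, 92360 to 101445 and 93715 to 100540 in replicates 1, 2 and 3, and 0 of 8 endothelial and pericyte markers passed the filter. The 7 fibroblast and meningeal markers summed to 1120 to 1806 in replicate 1, 1039 to 1437 in replicate 2 and 800.2 to 1231 in replicate 3. Of these markers 6 of 7 passed as higher in replicate 1 against replicate 2 (29% of all) and against replicate 3 (28.5% of all). Their medians were 1.08 and 1.03. The 10 microglia markers summed to 1099 to 1624, 1121 to 1855 and 1595 to 1977 in replicates 1, 2 and 3, with P2ry12 and Itgam below 4 on every array. The 3′ minus 5′ log2 difference of control probe sets is a sign of RNA integrity. For Gapdh, itself a gene of the list, it was 0.09 to 0.40 in replicate 1, 0.05 to 0.12 in replicate 2 and -0.05 to 0.07 in replicate 3. For Actb it was 0.82 to 1.09, 0.85 to 1.02 and 0.85 to 0.96 in replicates 1, 2 and 3, which overlapped throughout. The part of these in the differences between replicate numbers was not tested.

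Each splice variant was next set against eGFP. None of the 29 genes passed for β4a, β4b or β4e (0 of 29 each, with 0% of all probe sets tested), for the mean of the 3 variants, or in an F test over the 4 groups (0% of all in each). At an unadjusted p under 0.05 the limma fit called 0 of 29 genes for each variant, against 1.58% of all probe sets for β4a, 2.63% for β4b and 0.36% for β4e, and 0 of 29 for the mean of variants (2.03% of all) and the F test (0.759%). Since arrays with the same replicate number deviated together, a second fit took the replicate number as a block: again 0 of 29 genes passed for each variant, with 0.013% of all probe sets for β4a, 0.013% for β4b and 0% for β4e. Its unadjusted p was under 0.05 for 3 genes with β4a (15.3% of all), 8 with β4b (19.3%) and 2 with β4e (5.54%), every one higher with the variant (8.21%, 11.6% and 3.14% of all probe sets in that direction). P4ha2, admitted by the filter only through variant arrays, is 1 of the genes for each variant, and 2, 7 and 1 genes are left without it. The 3 comparisons share the same eGFP arrays, so their likeness is no separate evidence.

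Across the list the differences were small. The median log2 difference was 0.09 for β4a, 0.10 for β4b and 0.09 for β4e, beside 0.02, 0.03 and 0.01 for all probe sets. The fitted difference was above 0 for 21, 20 and 25 of the 29 genes (54.4%, 55% and 53.3% of all). Within replicate numbers, 10 genes with β4a were above eGFP in 3 of 3 numbers (19.1% of all), 14 with β4b (22.9%) and 10 with β4e (15.3%), and 2, 2 and 0 were below in 3 of 3 (16.4%, 18.1% and 12.4%). P4ha2 is again 1 of the genes above eGFP in 3 of 3 for each variant. All 9 differences were above 0 for Pdk1, Vegfa, Higd1a, Hk2 and Ldha, and for P4ha2, which the filter favoured in that direction. All 6 together stand beside 4.86% of all probe sets with this pattern. For Higd1a this holds for the probe set used. Its other tested probe sets had fitted differences of -0.06, 0.002 and 0.08, and of -0.04, -0.15 and -0.04, for β4a, β4b and β4e. The other tested probe sets of Pdk1 gave 0.08 to 0.33.

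Among pyruvate genes, Pdk1 with β4a exceeded eGFP by 0.23, 0.26 and 0.47 in replicates 1, 2 and 3. With β4b the differences were 0.55, 0.76 and 0.29, and with β4e 0.12, 0.48 and 0.26. The β4b difference averaged 0.53, with an interval of -0.69 to 1.75 in the fit without the block and 0.24 to 0.83 with it, at an adjusted p of 0.102 in the blocked limma fit, which ran from 0.103 to 0.289 when 1 array was left out of it. In the fit without the block the average came to 0.08 without β4b replicate 1 and to 0.98 without eGFP replicate 1. Ldha differences were smaller, 0.17, 0.19 and 0.14 on average for β4a, β4b and β4e.

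Of the hypoxia targets, P4ha2 exceeded 4 on 3 variant arrays and on no eGFP array, so its differences are given as values with no test. It exceeded eGFP by 0.48, 0.27 and 0.31 with β4a, by 0.44, 0.39 and 0.28 with β4b and by 0.91, 0.38 and 0.30 with β4e in replicates 1, 2 and 3. Without β4e replicate 1 the β4e average of 0.53 came to 0.17 in the fit without the block. Vegfa exceeded eGFP by 0.48, 0.32 and 0.21 with β4a, by 0.66, 0.23 and 0.06 with β4b and by 0.09, 0.33 and 0.19 with β4e. Its average with β4a was 0.34, with a blocked interval of 0.03 to 0.65 and an adjusted p of 0.299.

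The differences of Ndrg1 were largest in replicate 2. Ndrg1 exceeded eGFP by 1.09 with β4a, 1.28 with β4b and 1.07 with β4e in replicate 2, where its eGFP array alone was low. In replicate 1 its differences were -0.14, 0.15 and 0.13, and in replicate 3 they were 0.37, 0.62 and -0.01. The β4b average of 0.68 (blocked adjusted p = 0.160) dropped to 0.36 in the blocked fit without eGFP replicate 2. Adm with β4b averaged 0.48 above eGFP (0.73, 0.60 and 0.11 in replicates 1, 2 and 3, blocked adjusted p = 0.134), and P4ha1 with β4b averaged 0.40 (0.12, 0.63 and 0.46, blocked adjusted p = 0.159).

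Hk2 read 5.53 (β4a), 5.43 (β4b), 5.64 (β4e) and 5.33 (eGFP) in replicate 1, 4.82 (β4a), 5.77 (β4b), 5.10 (β4e) and 4.63 (eGFP) in replicate 2, and 5.68 (β4a), 5.25 (β4b), 4.72 (β4e) and 4.43 (eGFP) in replicate 3. Hk2 is a hexokinase that HIF-1 induces. In replicates 1, 2 and 3 it exceeded eGFP by 0.20, 0.19 and 1.25 with β4a and by 0.10, 1.14 and 0.81 with β4b. With β4e it did so by 0.31, 0.47 and 0.29. It did not pass for β4a (average 0.55, blocked adjusted p = 0.366) or β4b (0.68, blocked adjusted p = 0.212). Without β4a replicate 3 the β4a average came to 0.20 in the blocked fit. With β4e, Slc16a1 averaged 0.39 and Eno2 0.25 above eGFP, with a blocked adjusted p of 0.892 each.

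The blocked intervals bound the differences of other genes. Gapdh differed from eGFP by -0.03 with β4a (blocked interval -0.22 to 0.15), by -0.08 with β4b (-0.26 to 0.11) and by -0.02 with β4e (-0.21 to 0.17). Hif1a differed by -0.06, -0.07 and -0.05, with blocked intervals from -0.26 to 0.14 over the 3 variants. Its other tested probe sets gave -0.02, -0.04 and -0.02, and 0.34, 0.39 and 0.05. Slc2a1 differed by -0.02 with β4a (-0.43 to 0.39), 0.03 with β4b (-0.38 to 0.44) and 0.22 with β4e (-0.19 to 0.63). The 16 tested genes not given so far against eGFP, such as Slc2a3, Aldoa and Bnip3, differed by -0.13 to 0.17 with β4a, by -0.25 to 0.29 with β4b and by -0.19 to 0.18 with β4e. Their blocked intervals reached -0.52 and 0.44 at most with β4a, -0.55 and 0.59 with β4b, and -0.65 and 0.49 with β4e. These limits hold for the 1 probe set used per gene. The dimmer probe set of Egln1 gave 0.45, 0.44 and 0.55 for β4a, β4b and β4e in the fit without the block. That of Egln3 gave 0.54, 0.64 and 0.54, and neither passed. Between variants, 0 of 29 genes passed for β4a minus β4b, β4a minus β4e or β4b minus β4e, with or without the block, with 0% of all probe sets in each. At an unadjusted p under 0.05 the limma fit called 0, 0 and 0 genes without the block (0.243%, 0.664% and 0.759% of all) and 1, 0 and 1 with it (2.69%, 6.32% and 7.11%).

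**Figure D4:**
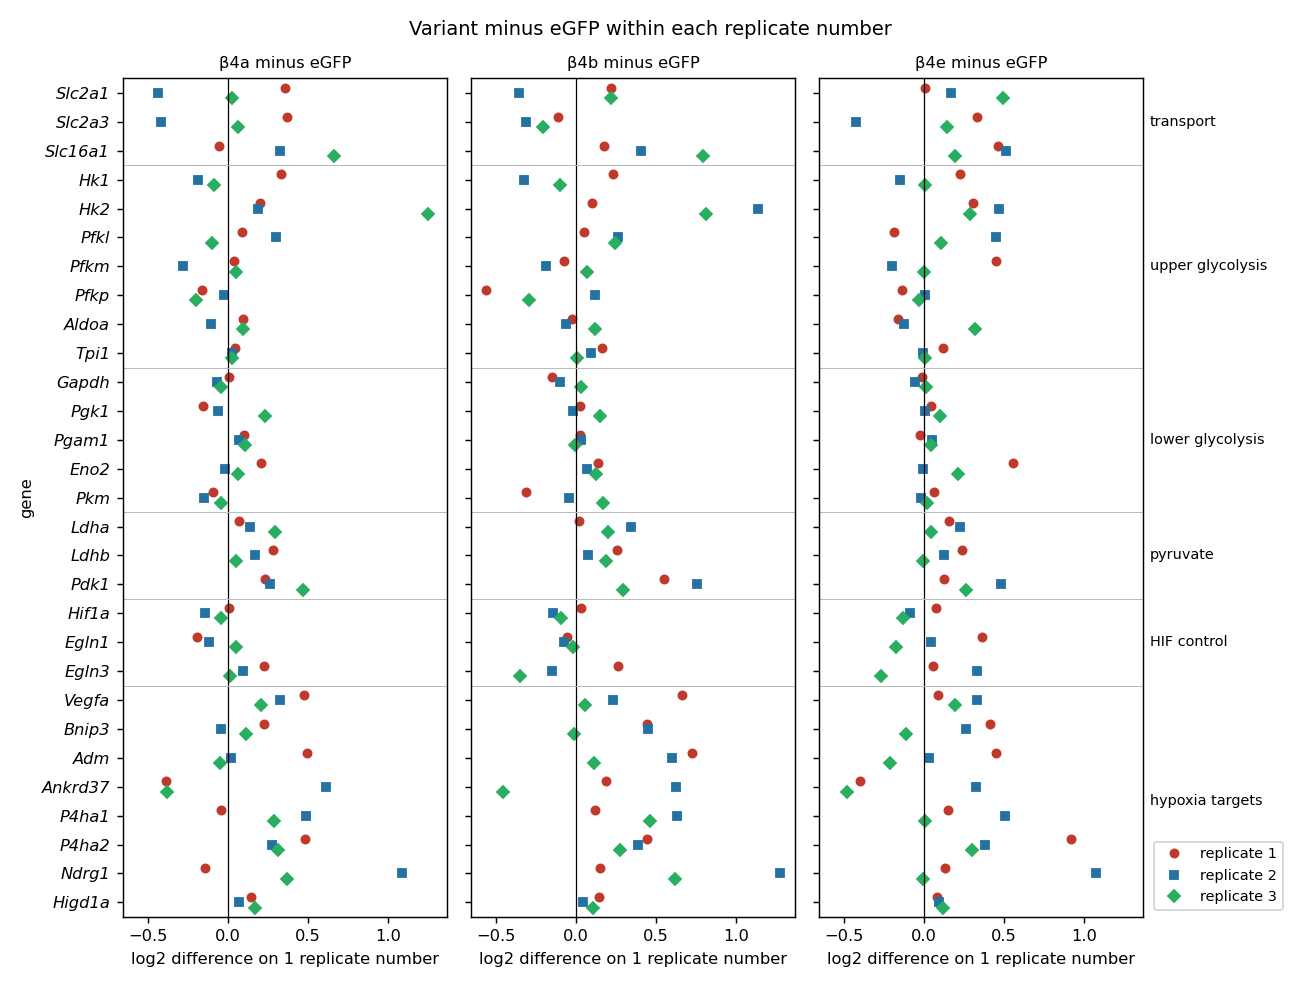
Log2 intensity with the variant minus that with eGFP (x axis) for each of the 29 genes (rows, by role), 1 point per replicate number and 1 panel per variant. The points of P4ha2, Pdk1, Vegfa, Higd1a, Hk2 and Ldha are right of 0 in all 9 cases. P4ha2 passed the filter only through variant arrays. The Ndrg1 point of replicate 2 lies beyond 1 in each panel.

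Cell type markers were set against eGFP too, and 0 passed in any list. Of all probe sets tested, 54.4%, 55% and 53.3% lay above eGFP for β4a, β4b and β4e, with medians of 0.02, 0.03 and 0.01. The variants share the same eGFP arrays here too. Of 13 astrocyte markers all 13 lay above eGFP for each variant, with medians of 0.45, 0.55 and 0.42 for β4a, β4b and β4e. Of 9 oligodendrocyte markers 8, 9 and 8 lay above eGFP (medians 0.07, 0.22 and 0.11), and of 12 granule cell markers 10, 9 and 6 lay below (medians -0.11, -0.08 and -0.03). Of 7 tested microglia markers 1, 5 and 4 lay above eGFP, and of 7 fibroblast and meningeal markers 4, 5 and 5. The astrocyte markers' summed linear intensity was 23330 to 40491 with β4a, 26439 to 49700 with β4b, 27907 to 29839 with β4e and 17109 to 31436 with eGFP. It was lowest in eGFP replicate 2, the array with the low Ndrg1. In replicate 1 the eGFP sum (31436) lay above those of β4a (25554), β4b (26439) and β4e (29839). In replicates 2 and 3 the eGFP sum lay below that of every variant. The part of these cells in the differences from eGFP was not tested. The 3 probe sets of Cacnb4 itself read 9.41 to 12.2, and over all 12 arrays those with a variant and with eGFP overlapped in each. Within replicates 2 and 3 the eGFP array read above every variant array in 2 of the 3 probe sets. In the other probe set it read below every variant array in replicates 1 and 3, so the probe sets disagreed. Whether these probes lie in the delivered sequence is not given in the sources used here.

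Further genes of the same pathways came from companion lists. For the variants 0 of 20 glycolysis genes, 0 of 38 hypoxia genes and 0 of 6 pentose phosphate genes passed, with or without the block. Pdk2, a second pyruvate dehydrogenase kinase, had the smallest unadjusted p among the glycolysis genes for each variant, at 0.43, 0.38 and 0.41 on the log2 scale for β4a, β4b and β4e (blocked adjusted p = 0.205, 0.155 and 0.873). Of the 20 glycolysis genes, 6 passed as higher and 3 as lower in replicate 1 against replicate 2 (29% and 24.2% of all probe sets). For replicate 2 minus replicate 3, 4 passed as higher and 2 as lower (16.6% and 15.7% of all). These counts lay near or under the shares of all, so the calls of this list did not repeat the rise of the enzymes in replicate 2. Its summed linear intensity, over the 26 genes with a probe set, was however highest in replicate 2 within each group. The sums ran from 23867 to 27400 in replicate 1, from 26380 to 28884 in replicate 2 and from 23161 to 24727 in replicate 3. Between replicate 1 and replicate 3, 10 of the 20 passed as higher and 2 as lower in replicate 1 (28.5% and 19.8% of all probe sets). They were led by Pfkfb2 (-0.65), Pfkfb3 (1.30) and Pdp2 (0.66). The first pair set the level of a potent activator of phosphofructokinase. Of the 38 hypoxia genes 23 passed as higher and 1 as lower in replicate 1 in the same contrast, led by the collagen crosslinker Lox (3.74), Pgm1 (0.88) and the glycogen branching enzyme Gbe1 (1.67). Between replicates 2 and 3, 14 of these passed as higher and 4 as lower in replicate 2 (16.6% and 15.7% of all), led by Lox (2.71), Mif (0.78) and Pgm1 (0.67). Between replicates 1 and 2, 18 passed as higher and 4 as lower in replicate 1 (29% and 24.2% of all), led by Rora (0.95), Mxi1 (0.79) and the heme oxygenase Hmox1 (2.21). The pentose phosphate enzyme Pgd rose in replicate 1 against replicate 2 (0.70) and against replicate 3 (0.66).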

How the data were processed

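Total RNA of 12 samples of cultured cells, 500 ng each, was labelled by 3′ in vitro transcription and hybridised to 1 Affymetrix array per sample, per the labels' protocols. The deposited values are log2 intensities that the authors made with GCRMA (version not given in the sources used here), 1 per probe set and normalized between arrays, per the submitters' processing notes. Of 45101 probe sets, 34958 carried 1 gene symbol, 932 several and 9211 none; 64 were controls, left out except the 3 for Gapdh. A probe set above 4 on at least 3 arrays was tested (23047). All 12 arrays were fitted with limma 3.58.1 in R 4.3.3 (lmFit, eBayes, checked on simulated data): 1 coefficient per group, without and with replicate number as a block, with Benjamini-Hochberg adjustment over all probe sets and a threshold of 0.05. Arrays that shared a number deviated together from their group means (r = 0.699 to 0.884 over 18 pairs, at most 0.146 over 36 others). Named genes were the 4 smallest blocked p per variant, the 8 largest differences between numbers that passed, and 7 set genes; companion lists gave up to 3 genes each. Members, lists and alternatives were chosen with earlier results of these data known. The number of arrays limits the precision.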

Additional observations from a re-analysis of the deposited data

Results flagged for a closer look

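Within the 4 arrays of 1 replicate number, 5 of 87 sets of values held an array whose gap to the nearest of the others, as a share of the range, exceeded Dixon's critical value, which chance alone exceeds in about 1 in 20 sets. Ndrg1 in eGFP replicate 2 was 6.957, below the next array at 8.029. P4ha2 in eGFP replicate 3 was 3.138, below 3.413, and Ldhb in eGFP replicate 1 was 12.03, below 12.27. Adm in β4b replicate 2 was 5.16, above 4.591, and Gapdh in β4b replicate 1 was 12.97, below 13.11.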

How the results depend on the processing

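The alternatives were no filter, a stricter filter above 6, recentred or requantiled arrays, a trended prior, each probe set tested alone, all probe sets of a gene averaged, the replicate block, no group term, and 1 array left out; leaving 1 array out of the blocked fit, and Adm and P4ha2 out of the list, were added after seeing the data. For each comparison of groups 0 genes of the list passed under every one of these. The genes passing numbered 20 to 24 for any difference among replicate numbers, 13 to 18 for replicate 1 minus replicate 2, 10 to 17 for replicate 1 minus replicate 3 and 11 to 16 for replicate 2 minus replicate 3. The replicate block changed no call of the list, while over all probe sets limma called 3 for β4a, 3 for β4b and 5 for the mean of the variants with it and 0 without, and 61 for β4b in the blocked fit without eGFP replicate 1. Fewer features were tested with the stricter filter or by gene, and 9888 and 7285 then differed among replicate numbers, beside 15030; the counts were 8004 and 5880 beside 12259 for replicate 1 minus replicate 2, 7098 and 5116 beside 11118 for replicate 1 minus replicate 3, and by gene 4026 beside 7454 for replicate 2 minus replicate 3. The list's median log2 difference for β4a (0.09) was 0.03036 with the stricter filter, 0.01215 to 0.1642 without 1 array, and 0.03114 to 0.1189 without 1 array of the blocked fit, lowest there without eGFP replicate 1. For β4b (0.10) it was 0.04205 with array medians centred and 0.04356 to 0.1716 without 1 array. Without 1 array of the blocked fit it was 0.0698 to 0.1082. For β4e (0.09) it ran from -0.01459, without eGFP replicate 3, to 0.2301 in the fit without the block. Without 1 array of the blocked fit it ran from 0.06427 to 0.1336. For replicate 1 minus replicate 3 (0.33) it was 0.1364 with the stricter filter, 0.1465 without Adm and P4ha2 and 0.2395 to 0.3371 without 1 array; for replicate 2 minus replicate 3 (0.30) it was 0.2316 with all probe sets of a gene averaged. Pdk1 with β4a (-0.07912 to 0.7631) and β4e (-0.07398 to 0.7307), which had not passed, turned sign without 1 array of the fit without the block. In the blocked fit without 1 array these 2 differences stayed above 0, at 0.2003 to 0.4186 and 0.2185 to 0.3569. Differences between replicate numbers that had not passed turned sign without 1 array for Vegfa and Egln1. These were replicate 1 minus replicate 2 for Vegfa (-0.1594 to 0.07172) and replicate 2 minus replicate 3 for Egln1 (-0.1413 to 0.05349). Some differences that had not passed did so under an alternative: Adm in replicate 1 minus replicate 2 with its probe sets averaged, without eGFP replicate 1 or without eGFP replicate 3; Hif1a in replicate 1 minus replicate 3 with its probe sets averaged; and Egln3 in replicate 2 minus replicate 3 with its probe sets averaged, no group term, quantile normalization again, or without eGFP replicate 3 or β4b replicate 1. The cause was not tested. Values near or under 4 (Adm, P4ha2, Egln3, Car9) are limited by background.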
